A study of Homo sapiens with 10 samples.

Results

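The 46 genes described here carry cells from G1 into S phase and copy the genome. They were taken by name, as a list that runs from the origin recognition complex to cyclin E. Each was read on the probe set of highest mean intensity among those named with exactly 1 symbol. All 46 were among the 19775 genes measured and among the 9888 whose mean log2 value reached the median and which were tested. The series comprised 10 single-channel arrays of cultured human gastric cancer cells, of which 4 carried RNA of the side population, 4 RNA of the non-side population and 2 RNA of cells that were not sorted. Replicates are lettered a to d in the sorted groups and a and b in the unsorted group. A side population is the fraction that pumps out the DNA dye Hoechst, and it was separated from the dye-retaining non-side population by flow sorting. AGS and MKN 45 are established gastric adenocarcinoma lines grown in RPMI medium with fetal bovine serum. Both lines stand in the origin label of each array, whereas the source label names AGS on 8 arrays and no line on side replicates a and b. No group carried a genetic change or a drug treatment in the labels. Nothing in the labels says that the replicates came from separate cultures, so a p-value here refers to the spread among these samples, and that spread may be technical.

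Before S phase, the origin recognition complex, CDC6 and CDT1 load the MCM2-7 helicase onto origins, a step called licensing. At the G1/S transition cyclin E with its kinase and the CDC7-DBF4 kinase turn the loaded helicase on by adding CDC45 and the GINS complex, after which polymerases, the PCNA clamp and its RFC loader copy both strands. Many of these genes are transcribed under E2F factors and peak around the start of S phase, so their RNA is commonly read as a measure of cycling cells.

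E2F sites lie close to the start of many replication genes, and promoter sequences of some members are shown here. Any part of such sites in the differences between replicate letters, described further on, was not tested. RefSeq promoter sequences of build GRCh38.p14 were matched for 40 of the 46 members, and the 250 bases before the start were searched on both strands for TTTCCCGC, TTTCGCGC, TTTGCCGC and TTTGGCGC. Where a gene had several starts the most upstream one was taken, so matches near another start of a gene can be missed. A match was found in 14 of the 40 members, which is 35%, against 760 of all 27305 promoters of the same length, which is 2.78%. CCAAT, the box bound by NF-Y, was found in 22 members (55.0%) and in 33% of all promoters, and TTTGAA, the core of the CHR element of mitotic genes, was found in 1 member (2.5%) and in 13.6% of all promoters. These matches are a description of the letters and not of factor binding. The first 4 sequences are the members that both matched the E2F letters and were called between replicate letters. Of the members with a promoter, 4 of the 15 called there held the E2F letters, and 10 of the 25 not called did. MCM3 and POLA1 are matched members that were not called there but were among the named members of the population comparisons. They lie at chr16:88803539-88803788 on the plus strand (CDT1), chr16:85688955-85689204 on the minus strand (GINS2), chr13:33817899-33818148 on the plus strand (RFC3), chr19:4909251-4909500 on the plus strand (UHRF1), chr6:52284743-52284992 on the minus strand (MCM3) and chrX:24693668-24693917 on the plus strand (POLA1). Each is written 5′ to 3′ toward the gene, and the capitals mark the E2F letters, which in CDT1, GINS2, RFC3, UHRF1 and POLA1 appear as their reverse complement.
CDT1: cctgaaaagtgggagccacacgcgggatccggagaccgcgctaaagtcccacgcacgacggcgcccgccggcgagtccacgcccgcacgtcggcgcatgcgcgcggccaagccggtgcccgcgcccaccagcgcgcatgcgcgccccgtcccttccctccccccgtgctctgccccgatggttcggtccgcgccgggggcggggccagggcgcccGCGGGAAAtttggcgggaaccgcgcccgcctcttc
GINS2: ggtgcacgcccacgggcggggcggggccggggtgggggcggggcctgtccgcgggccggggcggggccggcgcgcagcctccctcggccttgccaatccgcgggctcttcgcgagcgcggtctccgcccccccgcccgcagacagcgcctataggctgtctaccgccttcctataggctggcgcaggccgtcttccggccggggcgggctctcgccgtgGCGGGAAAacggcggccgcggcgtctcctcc
RFC3: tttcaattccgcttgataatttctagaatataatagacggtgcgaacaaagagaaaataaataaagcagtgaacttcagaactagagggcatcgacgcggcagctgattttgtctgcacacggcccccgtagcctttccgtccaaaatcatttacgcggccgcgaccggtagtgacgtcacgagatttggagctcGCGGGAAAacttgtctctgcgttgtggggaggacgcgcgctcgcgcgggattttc
UHRF1: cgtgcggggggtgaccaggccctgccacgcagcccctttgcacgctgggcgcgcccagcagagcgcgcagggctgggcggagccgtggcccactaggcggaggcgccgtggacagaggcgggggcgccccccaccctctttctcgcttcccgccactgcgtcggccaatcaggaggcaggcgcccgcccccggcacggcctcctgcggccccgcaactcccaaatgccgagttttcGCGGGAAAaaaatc
MCM3: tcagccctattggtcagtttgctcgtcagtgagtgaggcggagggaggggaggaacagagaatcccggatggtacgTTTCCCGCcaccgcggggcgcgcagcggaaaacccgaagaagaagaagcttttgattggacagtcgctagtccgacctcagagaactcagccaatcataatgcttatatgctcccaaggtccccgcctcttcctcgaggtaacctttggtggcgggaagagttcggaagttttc
POLA1: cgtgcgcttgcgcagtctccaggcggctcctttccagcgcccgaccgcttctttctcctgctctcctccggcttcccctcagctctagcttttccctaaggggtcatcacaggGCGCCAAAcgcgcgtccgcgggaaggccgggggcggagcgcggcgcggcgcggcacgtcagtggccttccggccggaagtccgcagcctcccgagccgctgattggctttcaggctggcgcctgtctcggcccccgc
Counted from the start that was taken, with the base just before it as -1, the match ended at -28 in CDT1, -24 in GINS2, -48 in RFC3 and -7 in UHRF1. In these 4 it lay close to that start. It ended at -167 in MCM3 and at -130 in POLA1.

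Median intensity over all probe sets lay between 58.7 and 85.4 on the 10 arrays, and the small number of arrays (only 2 in the unsorted group) limits the precision. The ratio of 3′ to 5′ signal of the actin control was 3.34 in side replicate a and 0.987 to 1.28 elsewhere, and the values of POLA1 and FEN1 and the count between letters are also given without it. Epithelial markers were above the filter for 9 of 9 measured genes, against 2 of 10 fibroblast, 2 of 8 blood and 0 of 6 endothelial markers. The blood genes above the filter were LYZ and HBB, and the fibroblast genes were COL1A1 and PDGFRA.

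Side population and non-side population cells were compared to ask whether the replication genes differ between the sorted fractions. No member was called (limma, Benjamini-Hochberg adjusted p under 0.05), and the same test called 0 of 9888 genes, or 0%. At an unadjusted p under 0.05 there were 2 members, GINS4 and MCM3, against 430 of all genes (4.35%). Of the 46 members 26 had a higher mean log2 value in side cells and 20 a lower one, a share of 56.5% against 57.3% for all genes, and the median log2 fold change was 0.05 for the members and 0.05 for all genes. On the 8 arrays whose source label names AGS, the members' median turned to -0.24, while that of all genes was 0.07. That set lacks side replicates a and b but holds non-side replicates a and b, so letters are not balanced in it. Within letters c and d, where every source label names AGS, the members' median was -0.06 and that of all genes 0.01. For 36 members the 95% interval of the difference lay within 1 log2 unit on either side of 0, which was so for 83% of all genes. In these bulk samples the share of cells in S phase and the RNA per cell cannot be told apart.

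**Figure D1:**
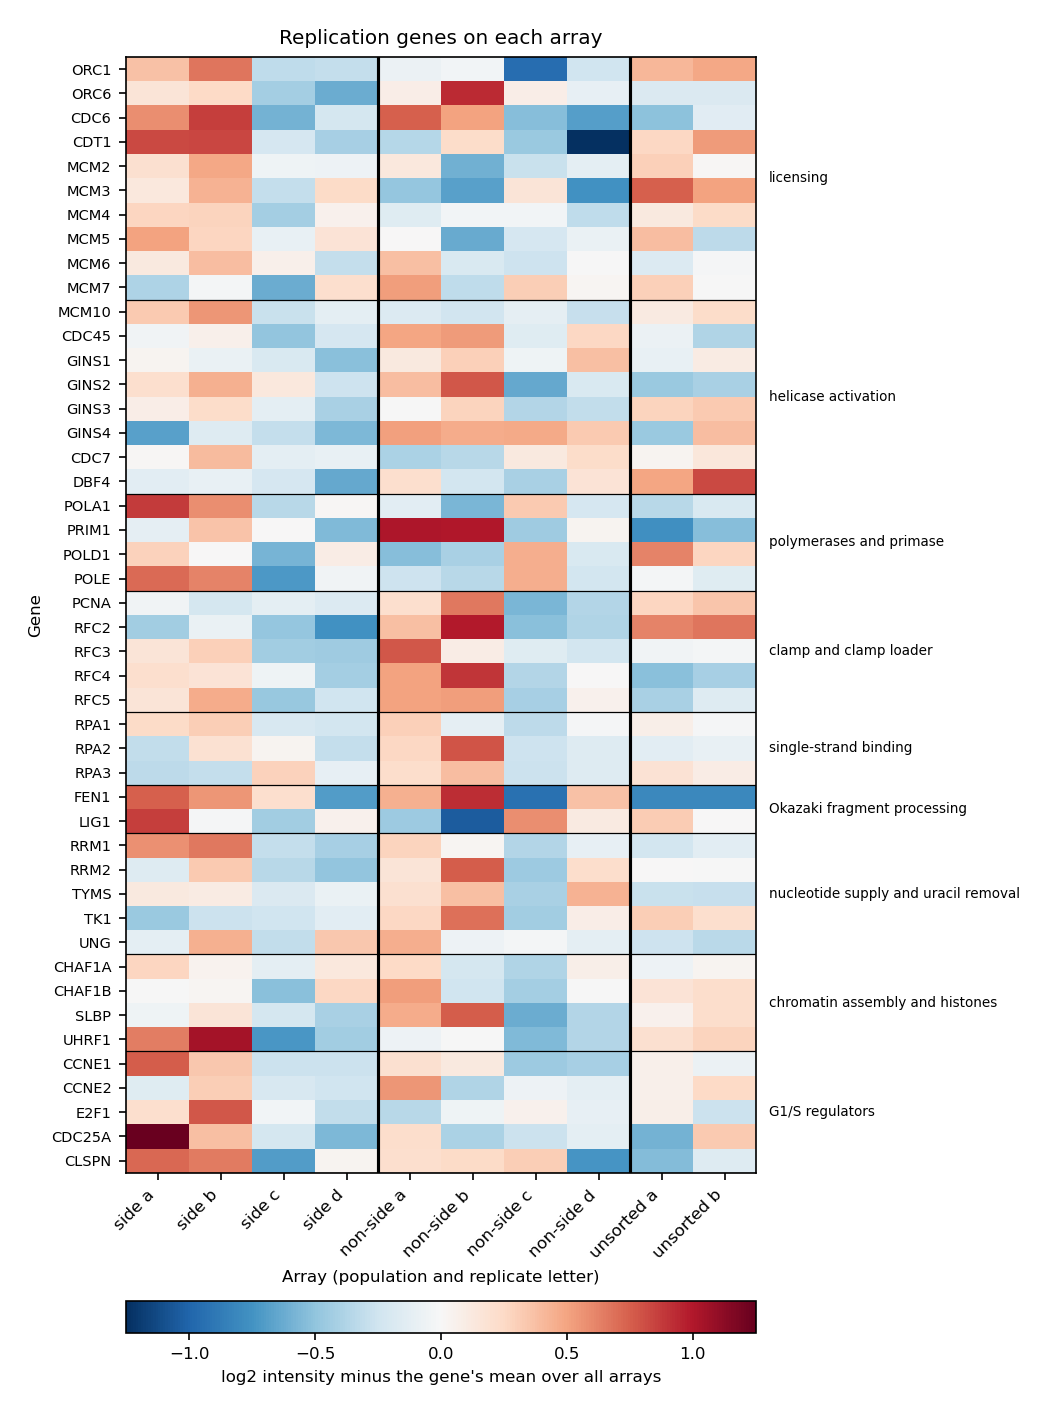
Deviation of each member from its own mean over the 10 arrays (log2 units, colour), with arrays in columns (side, non-side, unsorted) and the 46 members in rows ordered by role. Side replicates a and b and non-side replicates a and b carry most of the positive deviations, and the other sorted arrays most of the negative ones.

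Among the 10 licensing genes 8 were higher and 2 lower in side cells, with a median log2 fold change of 0.27 and none called. MCM3, a subunit of the helicase ring, had 2726.7, 3359.9, 2014.9 and 2933.9 intensity units in side replicates a to d, against 1765.2, 1546.9, 2772.1 and 1466.4 in non-side replicates a to d and 4167.7 and 3513.1 in the 2 unsorted replicates. The sorted groups overlapped through non-side replicate c, which was above side replicates a and c, and both unsorted arrays were above every sorted array. Side against non-side cells gave a log2 fold change of 0.57 ± 0.24 (SE, limma adjusted p = 0.997). CDT1, which brings the MCM ring to the origin, had 1498.5, 1508.2, 725.9 and 630.7 in side replicates a to d, against 655.4, 990.6, 610 and 349.7 in non-side replicates. Its log2 fold change was 0.72 ± 0.34 (adjusted p = 0.997), with 0.45 without non-side replicate d, and its second probe set gave -0.09. The remaining helicase subunits among the named genes, MCM5 and MCM2, had log2 fold changes of 0.44 ± 0.23 and 0.36 ± 0.22, with overlapping groups. MCM7 and ORC6 were the licensing genes with lower means in side cells, at -0.35 ± 0.24 and -0.41 ± 0.26.

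GINS4, a subunit of the GINS complex that works with the active helicase, was the only member whose side and non-side arrays did not overlap. It read 283.6, 410.4, 371.7 and 309.8 in side replicates a to d, against 655.8, 635.2, 640.8 and 576.7 in non-side replicates a to d and 331.3 and 601.3 in unsorted replicates. Every side array was below every non-side array, and the unsorted arrays lay 1 in each range. Its log2 fold change was -0.87 ± 0.23 (95% interval -1.37 to -0.37, unadjusted p = 0.00219, limma adjusted p = 0.997). Among all genes 0.576% had side arrays wholly below the non-side arrays and 1.01% wholly above. The other 3 probe sets of GINS4 gave -1.19, -0.08 and -0.40, of which the first alone was above the filter. Leaving out 1 array at a time kept the GINS4 difference between -0.96 and -0.78.

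The other genes of helicase activation split into 4 higher and 4 lower, GINS4 included, with a median of -0.08. CDC45, which completes the active helicase, had 688.7, 739.9, 502 and 613.3 in side replicates a to d, against 1002.6, 1029.8, 640.1 and 848.4 in non-side replicates, a log2 fold change of -0.46 ± 0.22. The ranges overlapped because non-side replicate c was below side replicates a and b. GINS1 gave -0.38 ± 0.19, whereas GINS2 and GINS3 each gave 0.05, with SE of 0.28 and 0.23.

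**Figure D2:**
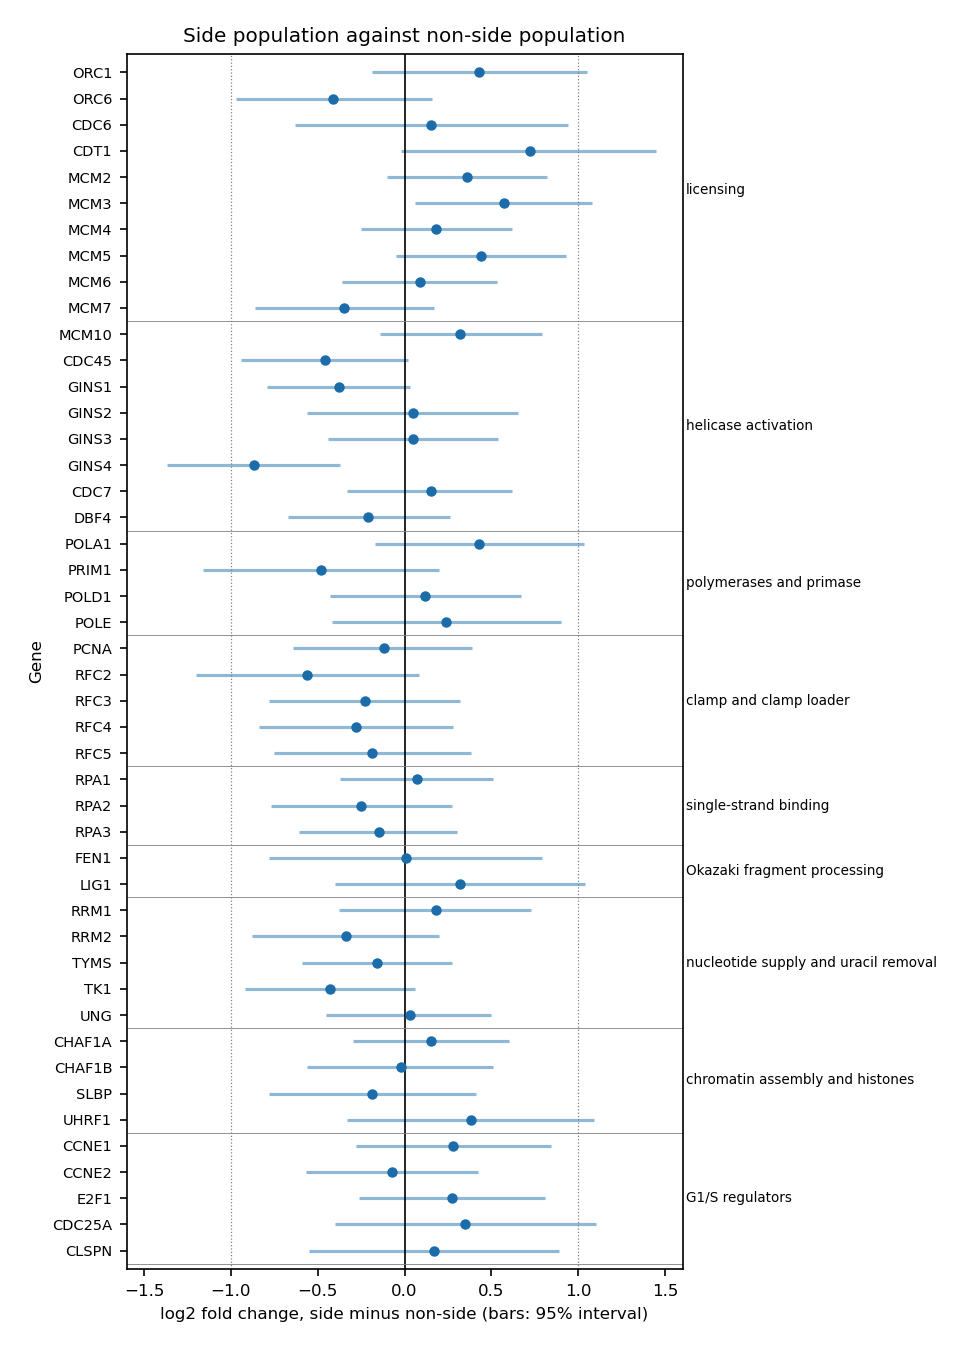
Log2 fold change of side minus non-side cells for the 46 members with 95% intervals from the limma fit (x axis, log2 units), ordered by role. GINS4 and MCM3 are the members whose interval leaves out 0, and none passed the adjusted threshold.

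All 5 members that belong to the sliding clamp and its loader had lower means in side cells, from -0.56 to -0.12 with a median of -0.23, and none was called. Further probe sets above the filter gave -0.34 for RFC2, -0.85 for RFC3, and -0.77 and 0.01 for RFC5. RFC2, a loader subunit, had 1132.1, 1452.4, 1099 and 904.6 in side replicates a to d, against 2002.8, 3073.6, 1063.5 and 1183.6 in non-side replicates and 2363.8 and 2444.8 in unsorted cells. Non-side replicates a and b were above all side arrays, whereas non-side replicates c and d lay within the side range. Its log2 fold change was -0.56 ± 0.30, and -0.27 without non-side replicate b. PCNA, the clamp itself, averaged 12546 ± 659 in side cells (SD, n = 4), against 14468 ± 5709 in non-side cells (SD, n = 4) and 17113 ± 602 in unsorted cells (SD, n = 2), a log2 fold change of side against non-side cells of -0.12 ± 0.24.

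The polymerases gave opposite values. POLA1, the catalytic subunit that begins each strand together with primase, gave 0.43 ± 0.28, with 1260.5, 1025.1, 537 and 693.4 in side replicates a to d and 621.9, 457.6, 862.9 and 589.3 in non-side replicates, and 0.23 without side replicate a. PRIM1, the primase that lays the RNA primer, gave -0.48 ± 0.32, with 1631.8, 2269.6, 1775.2 and 1203.1 in side replicates, against 3580.2, 3547.7, 1296.3 and 1810.3 in non-side replicates. In both genes the replicates with letters a and b separated the fractions and those with letters c and d overlapped between them. POLD1 and POLE, which extend the strands, gave 0.12 ± 0.26 and 0.24 ± 0.31.

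TK1, a thymidine kinase that supplies dTTP, had 2602.7, 2976.9, 3019.6 and 3265.4 in side replicates a to d, against 4278.8, 5772.7, 2650.4 and 3810.5 in non-side replicates a to d. Its log2 fold change was -0.43 ± 0.23, and non-side replicate c lay within the side range. The other nucleotide genes ranged from -0.34 for RRM2 to 0.18 for RRM1, the subunits of ribonucleotide reductase. Another probe set above the filter gave the opposite sign for both, at 0.06 for RRM2 and -1.03 for RRM1. The single-strand binding subunits RPA1, RPA2 and RPA3 lay between -0.25 and 0.07. Of the G1/S regulators 4 of 5 were higher in side cells, with a median of 0.27, a direction that turned between pairs of letters, from 4 of 5 higher (median 0.46) in letters a and b to 1 of 5 (median -0.13) in letters c and d. CCNE1 (cyclin E1) gave 0.28 ± 0.26, E2F1 gave 0.27 ± 0.25 and CDC25A, a phosphatase that activates cyclin-dependent kinases, gave 0.35 ± 0.35. Further probe sets above the filter gave -0.33 for CDC25A, 0.19 for E2F1 and -1 for CCNE2, the regulator with a lower mean in side cells.

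The sorted fractions were each set against unsorted cells. Both comparisons use the same 2 unsorted arrays. No member was called for side against unsorted cells, where the test called 242 of 9888 genes (2.45%), and none for non-side against unsorted cells, where it called 362 genes (3.66%). At an unadjusted p under 0.05 there were 3 members for side cells, against 17.2% of all genes, and 6 for non-side cells, against 19.6%. The members' median log2 fold change was -0.03 in side cells and -0.04 in non-side cells, against 0.04 and -0.01 for all genes. Side arrays lay wholly above the unsorted arrays for 3 members (21.4% of all genes) and wholly below for 6 (15.5%). For non-side arrays these counts were 4 (15.6% of all genes) and 8 (16.3%).

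DBF4, the activating subunit of the CDC7 kinase, was below the unsorted arrays in all 8 sorted arrays. It had 1788.9, 1836.6, 1693.7 and 1249.4 in side replicates and 2263.7, 1671.8, 1478.4 and 2206.8 in non-side replicates, against 2759.6 and 3480.6 in unsorted cells. The log2 fold change was -0.93 ± 0.27 for side cells (limma adjusted p = 0.0804) and -0.72 ± 0.27 for non-side cells (adjusted p = 0.15). MCM3, whose values are given above, had the smallest adjusted p of the members for non-side cells, with -1.07 ± 0.29 (adjusted p = 0.0593), and gave -0.50 ± 0.29 for side cells (adjusted p = 0.416). RFC2 gave -1.08 ± 0.37 for side cells (adjusted p = 0.133) and -0.52 ± 0.37 for non-side cells. The second probe set of RFC2, also above the filter, gave smaller values of -0.38 for side and -0.04 for non-side cells.

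FEN1, the flap nuclease that trims Okazaki fragments, had 7757, 6751.5, 5321.1 and 2831 in side replicates a to d and 6270.7, 8715.7, 2398.8 and 5922 in non-side replicates, against 2624.6 and 2627.9 in unsorted cells. It was above the unsorted arrays on every sorted array except non-side replicate c. The log2 fold change was 1.01 ± 0.45 for side cells (adjusted p = 0.264, and 0.83 without side replicate a) and 1.01 ± 0.45 for non-side cells (adjusted p = 0.236). Its second probe set gave -0.78 and -0.05, so the sign of FEN1 against unsorted cells depends on the probe set. PRIM1 averaged 1720 ± 440 in side cells and 2559 ± 1180 in non-side cells (SD, each n = 4). Unsorted cells averaged 1129 ± 130 (SD, n = 2). Its log2 fold change was 0.57 ± 0.39 for side cells and 1.05 ± 0.39 for non-side cells (adjusted p = 0.151).

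**Figure D3:**
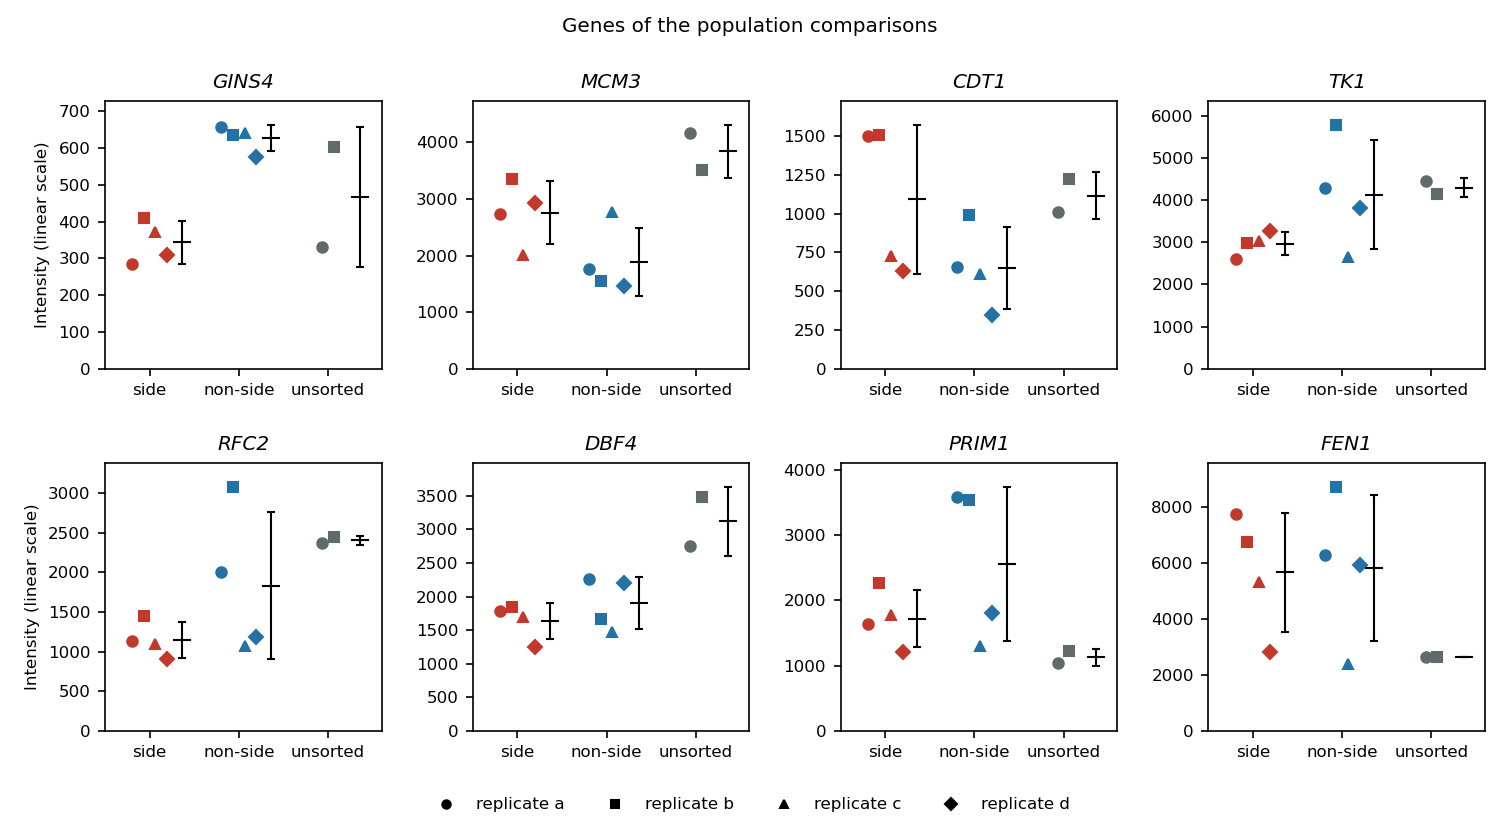
Intensity (linear scale) of GINS4, MCM3, CDT1, TK1, RFC2, DBF4, PRIM1 and FEN1 on each array, with the group mean and SD beside the points. GINS4 is the panel in which side and non-side arrays do not overlap, and DBF4 and MCM3 show unsorted arrays above all sorted arrays.

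Other named members against unsorted cells were not called either. In side cells GINS2, UNG, POLD1 and TK1 gave 0.57, 0.38, -0.49 and -0.54. UNG removes uracil from DNA. In non-side cells RFC4, CDC45, TYMS, ORC1, CDT1 and POLD1 gave 0.73, 0.51, 0.43, -0.78, -0.86 and -0.61. TYMS is thymidylate synthase and ORC1 a subunit of the origin recognition complex. All 4 chromatin genes had lower means in non-side cells than in unsorted cells, from -0.49 for UHRF1 to -0.06 for CHAF1A, a subunit of the chromatin assembly factor that places histones behind the fork.

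Replicate letters were compared in a fit that split each sorted group by letters, which takes letter differences out of the spread. The fit of the 3 groups keeps them in, so the numbers called in these fits are not like for like. Between letters 15.8% of all genes were called in either direction, against 0% between the sorted fractions in the fit of the 3 groups. The 8 sorted arrays carry the letters a to d in both fractions. Setting letters a and b against letters c and d was added after the data had been seen, and the division itself was drawn in earlier work on these data, so its p-values may be too small. The labels do not say what the letters share. Of the 46 members 42 (91.3%) had a higher mean in letters a and b, against 46.6% of all genes, and the median log2 fold change was 0.35 against -0.03. Of the 25 members with several probe sets, 8 had another above the filter with the opposite sign. The limma fit called 15 members higher and 0 lower, against 5.65% of all genes called higher and 10.1% lower. In 13 members the 4 arrays of letters a and b were all above the 4 arrays of letters c and d, which held for 6.05% of all genes, and the reverse order held for 0 members and 8.32% of all genes. Other lists moved in the same contrast. Of the 25 mitotic genes 18 were higher in letters a and b and 5 were called higher. Among the 9 epithelial markers KRT7, a keratin, was called higher (0.67 ± 0.20, adjusted p = 0.0419). Of the 2 blood markers above the filter LYZ (lysozyme, which gastric gland cells also make) was called lower, at -1.34 ± 0.20 (adjusted p = 0.0012) and at -2.15 ± 0.29 within side cells, and HBB, a globin, gave 0.18 ± 0.29. The summed intensity of the 8 measured blood markers was 6923 to 27052.9 in letters a and b, against 34312.8 to 44158.7 in letters c and d. LYZ made up most of that sum, at 6247.4 to 26329.6 in letters a and b and 33745.8 to 43612.3 in letters c and d. The part of these markers in the members' result was not tested.

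CDC6, the licensing factor that loads the MCM ring, had the smallest adjusted p. It read 2588.4 and 3155.9 in side replicates a and b and 2912.7 and 2451.3 in non-side replicates a and b, against 1143.7 and 1481 in side replicates c and d and 1191.3 and 1066.5 in non-side replicates c and d. The pairs of letters were fully apart in both fractions, and the unsorted arrays, at 1207.4 and 1567.3, lay near letters c and d. The log2 fold change was 1.19 ± 0.16 (limma adjusted p = 0.000715), and the second probe set of CDC6 gave 1.33. Of the 10 licensing genes CDC6, CDT1 (0.97 ± 0.21, adjusted p = 0.00774), ORC1 (0.69 ± 0.21) and ORC6 (0.62 ± 0.18) rose. The 6 subunits of the helicase ring, MCM2 to MCM7, lay between -0.03 and 0.30, and none was called.

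UHRF1, which recognises hemimethylated DNA behind the fork, had 5276.9 and 6974.1 in side replicates a and b and 3223.5 and 3374.5 in non-side replicates a and b. In letters c and d it had 2030.2 and 2490 in side replicates and 2304.8 and 2614.4 in non-side replicates. The log2 fold change was 0.93 ± 0.15 (adjusted p = 0.00177), and the side replicates a and b stood above all other arrays. SLBP, which binds the stem-loop of histone mRNA, had 6021.7 and 6985.9 in side replicates a and b and 8584.5 and 10553.2 in non-side replicates a and b. Letters c and d of SLBP had 5366.3 and 4719.6 in side replicates and 4059 and 4854.8 in non-side replicates. Its log2 fold change was 0.73 ± 0.15 (adjusted p = 0.00631), and here the highest arrays were non-side ones.

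**Figure D4:**
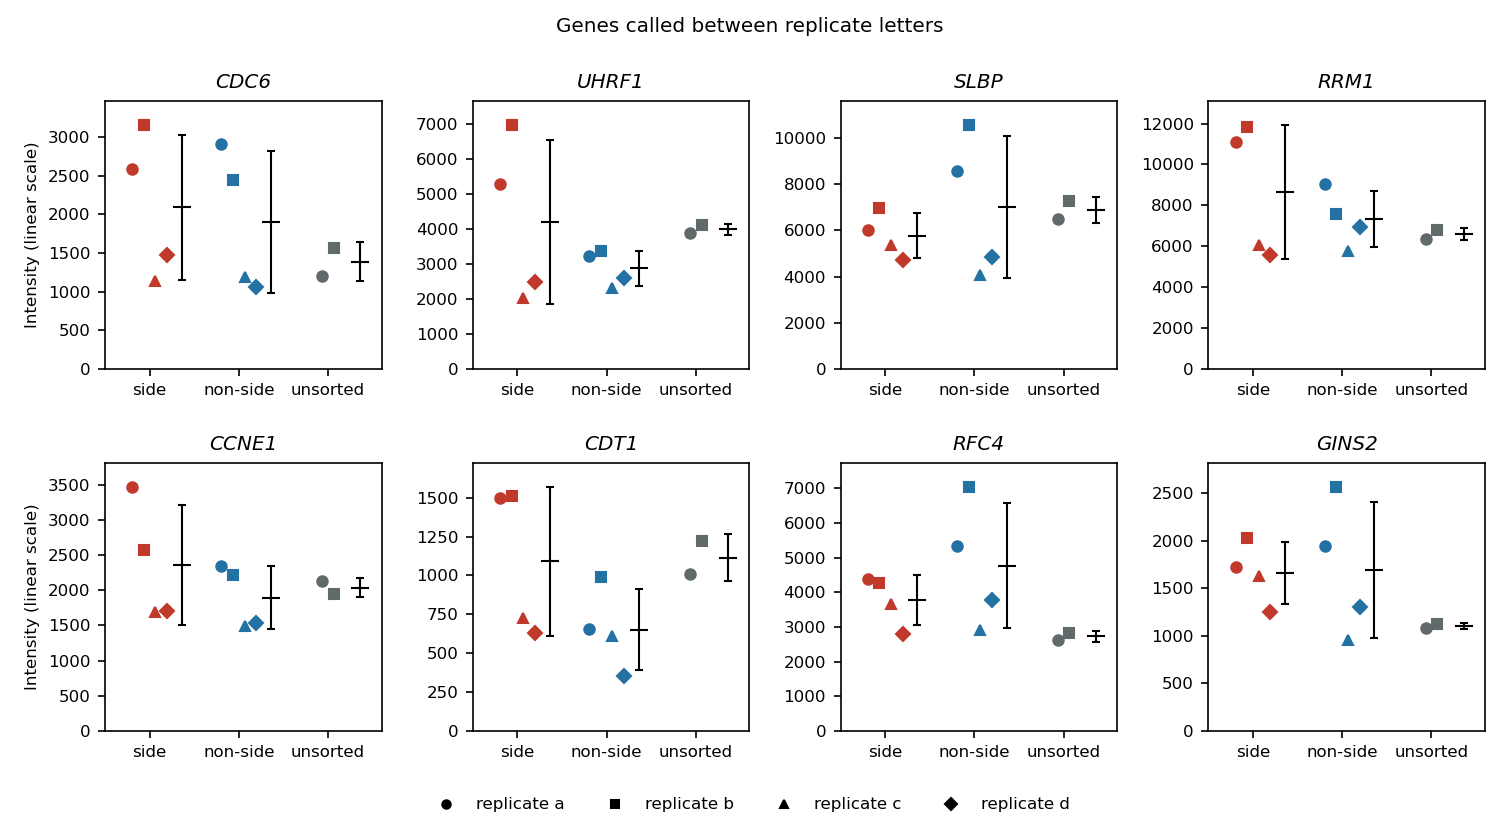
Intensity (linear scale) of CDC6, UHRF1, SLBP, RRM1, CCNE1, CDT1, RFC4 and GINS2, members called between letters a and b and letters c and d, on each array with group mean and SD. Circles and squares (letters a and b) lie above triangles and diamonds (letters c and d) in the sorted groups of 7 panels, while in CDT1 non-side replicate a lies below side replicate c.

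All 4 loader subunits among the members rose in letters a and b, RFC2 by 0.75 ± 0.17, RFC5 by 0.69 ± 0.16, RFC4 by 0.66 ± 0.16 and RFC3 by 0.65 ± 0.16. PCNA gave 0.46 ± 0.15 (adjusted p = 0.0574). RFC4 had 4380.6 and 4260.3 in side replicates a and b and 5342.4 and 7039 in non-side replicates a and b, against 3649.1, 2803.2, 2923.1 and 3792.1 in the 4 arrays of letters c and d. The other members that rose were PRIM1 (0.81 ± 0.18), FEN1 (0.93 ± 0.27), RRM1 (0.68 ± 0.14), GINS2 (0.69 ± 0.17) and CCNE1 (0.71 ± 0.15). None of the RPA subunits was called. Of the called members 7 had a further probe set above the filter, and of these 8 further probe sets 7 had a positive difference and 1, of RRM1, had -0.26.

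The number called between letters depended on single arrays, and so did the share of all genes called in either direction. With all arrays these were 15 members and 15.8% of all genes. The members called were 7 without side replicate b (8.87% of all genes) and 7 without side replicate d (8.31%). They were 9 without non-side replicate b (9.33%), 8 without non-side replicate c (9.28%) and 13 without side replicate a (15.7%). With each array left out in turn, 40 to 44 members kept a positive value. Side replicates a and b are also the 2 arrays whose source label names no line, so within side cells letter and label cannot be told apart. Within non-side cells, where all 4 source labels name AGS, 9 members were called higher and 1 lower, against 7.58% and 13% of all genes, with a median of 0.37. The lower one was LIG1, the ligase that joins Okazaki fragments, at -1.09 ± 0.32 (limma adjusted p = 0.0333). Within side cells 5 members were called higher, CDC6, CDT1, RRM1, UHRF1 and CCNE1, against 1.81% of all genes, with a median of 0.40. CDC6 alone was called within each fraction, at 1.13 ± 0.23 in side cells and 1.24 ± 0.23 in non-side cells.

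By array, the median deviation of the 46 members from their own means was 0.16, 0.31, -0.26 and -0.25 in side replicates a to d, 0.22, 0.06, -0.28 and -0.12 in non-side replicates a to d, and 0.04 and 0.00 in the 2 unsorted replicates. Both fractions thus hold arrays above and arrays below 0, and the unsorted arrays lie near 0. Of the 46 members 40 (87%) had their highest array among letters a and b of the sorted cells, against 47.1% of all genes. The 25 genes of G2/M and mitosis had median deviations of 0.27, 0.06, -0.36 and -0.48 in side replicates a to d, against 0.10, -0.08, -0.08 and 0.24 in non-side replicates. In non-side cells replicate d was thus the highest for the mitotic genes and below 0 for the replication genes. Members spanned a median ratio of highest to lowest array of 2.31, equal to that of all genes at 2.31, from 1.56 for RPA1 to 4.31 for CDT1.

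Since letters moved with the members, side and non-side cells were also compared within each pair of letters. In letters a and b 5 members were called, 3 higher and 2 lower, against 9.2% of all genes (7.13% higher and 2.07% lower). UHRF1 (0.88 ± 0.21), POLA1 (1.08 ± 0.27) and LIG1 (1.17 ± 0.32) rose in side cells, and RFC2 (-0.95 ± 0.25) and TK1 (-0.83 ± 0.23) fell, with limma adjusted p from 0.0326 to 0.0444. In letters a and b the side arrays have no line in their source label and the non-side arrays name AGS, so fraction and label cannot be told apart there, whereas all arrays of letters c and d name AGS. LIG1 had 2246.4 and 1215.2 in side replicates a and b, against 895.5 and 592.9 in non-side replicates a and b, and side replicate a, the array with the high actin ratio, was the highest. Members divided evenly, 23 higher and 23 lower, with a median of 0.01. Of the 10 licensing genes 8 were higher, with a median of 0.47, and all 5 clamp and loader members were lower, with a median of -0.50. In letters c and d these medians were 0.16 (7 of 10 higher) and -0.17 (4 of 5 lower). PCNA gave -0.57 ± 0.22 in letters a and b and 0.32 ± 0.22 in letters c and d. In letters c and d the test called 0 members and 0 of all genes, or 0%, and at an unadjusted p under 0.05 there were GINS4 (-0.83 ± 0.31) and GINS1 (-0.52 ± 0.22), against 4.4% of all genes. Each fold change within letters rests on 2 arrays of each fraction, while its SE comes from a fit of all 10 arrays split by letters. Set against unsorted cells in the same way, side cells had 5 members called in letters a and b (13.9% of all genes) and 3 in letters c and d (8.56%), and non-side cells had 9 (22.3%) and 4 (11.9%). FEN1 was called in letters a and b of both fractions, at 1.46 ± 0.37 in side cells and 1.49 ± 0.37 in non-side cells. RFC2 fell in side cells in both pairs of letters, by 0.90 in letters a and b and by 1.26 in letters c and d on the log2 scale.

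Members had the same sign in both pairs of letters in 25 of 46 cases. GINS4 was lower in side cells by similar amounts in each, at -0.91 ± 0.31 in letters a and b and -0.83 ± 0.31 in letters c and d. POLA1 gave 1.08 in letters a and b and -0.22 in letters c and d, and LIG1 gave 1.17 and -0.54. The difference between the pairs was tested as an interaction. It called 0 members and 0 of all genes, or 0%, with 14 members at an unadjusted p under 0.05, against 26.8% of all genes. The largest was LIG1 at 1.71 ± 0.45 (limma adjusted p = 0.0993), followed in size by POLE at 1.46 ± 0.42 and POLA1 at 1.31 ± 0.38.

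**Figure D5:**
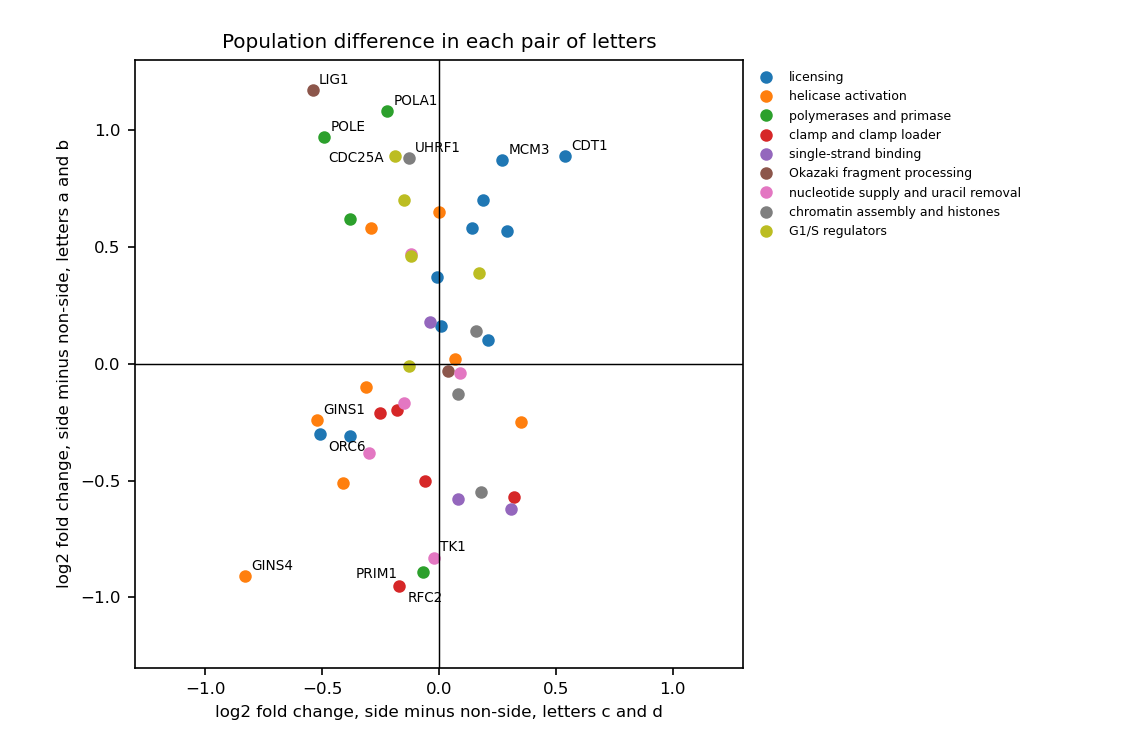
Log2 fold change of side minus non-side cells in letters a and b (y axis) against that in letters c and d (x axis) for the 46 members, coloured by role. GINS4 lies low on both axes, while LIG1, POLA1 and POLE are positive on the y axis and negative on the x axis.

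Beyond the members, a second list of 50 replication and E2F genes held 47 measured and 46 tested genes. None was called between side and non-side cells (3 at an unadjusted p under 0.05, against 4.35% of all genes), with 21 higher, 25 lower and a median of -0.04. Against unsorted cells 1 was called in side cells, where 2.45% of all genes were called. In non-side cells 1 was called higher and 2 lower, where 3.66% of all genes were called. E2F7, an E2F repressor, was called higher in side cells (1.44 ± 0.32, limma adjusted p = 0.0346) and in non-side cells (1.25 ± 0.32, adjusted p = 0.0475). In non-side cells MSH6, a mismatch repair protein, and WDHD1, which ties polymerase alpha to the helicase, fell by 1.08 and 1.28 on the log2 scale (adjusted p = 0.0419 and 0.0459). Between letters 6 of the 46 were called higher and 3 lower, against 5.65% and 10.1% of all genes. Among them were MCM9, a helicase used in repair (1.90 ± 0.25), GMNN, the inhibitor of CDT1 (0.96 ± 0.22), and DUT, which removes dUTP (0.89 ± 0.19), with POLD4, a small subunit of polymerase delta, lower (-0.97 ± 0.17). The 25 mitotic genes had 7 higher and 18 lower values in side than in non-side cells, a median of -0.12 and 0 called (5 at an unadjusted p under 0.05, against 4.35% of all genes). In letters a and b 13 were higher and 12 lower, with a median of 0.12. There 4 were called higher and 1 lower, against 7.13% and 2.07% of all genes. In letters c and d all 25 were lower in side cells, with a median of -0.45, none called by limma and 11 at an unadjusted p under 0.05, where 52.2% of all genes were higher and 4.4% were at an unadjusted p under 0.05.

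Among the members called between letters, 4 of 15 held the E2F letters printed above, and among those not called 10 of 25 did. CCAAT was found in 53.3% of the first and 56.0% of the second.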

How the data were processed

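RNA of 10 cell samples was hybridised to single-channel arrays. The authors deposited intensities on a linear scale for 54675 probe sets. GCOS 1.4 is the software in the submitters' processing notes, and neither its algorithm nor its settings are given in the sources used here. The mean after trimming 2% of values from either end was 500.065 to 500.095 on every array, so no further scaling was applied. Of the probe sets 41097 had 1 symbol in the platform annotation, 1801 several and 11777 none. Before log2 a constant of 6.1 (the 10th percentile over all arrays) was added, so fold changes understate the change of dim genes. Each gene took the probe set of highest mean intensity, and 9888 genes at or above the median log2 mean (intensity 149) were tested. The 3 groups were fitted together with limma 3.58.1 in R 4.3.3 (eBayes with a trend), with Benjamini-Hochberg adjustment over the 9888 genes and a call at 0.05. SE and 95% intervals of the comparisons of these 3 groups come from that fit. All comparisons by letters come from a second fit of the 10 arrays, with each sorted group split into letters a and b and letters c and d. Their SE therefore draw on the spread of all 10 arrays. The scripts were tested on simulated data.

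The members and lists were chosen with earlier results of these data known. Within each comparison the text names the members called and up to 5 of smallest p in each direction, any that do not overlap between sorted fractions, and the genes needed to describe a role, which were added after their values were seen. Of the members, 25 had several probe sets. Another probe set above the filter had the opposite sign for 10 members between side and non-side cells and 12 between side and unsorted cells. The count was 8 between non-side and unsorted cells, and also 8 between the pairs of letters in sorted cells. The probe sets of CDT1, ORC6 and CHAF1A end in x_at, the maker's mark for probes that may also match other transcripts. Letters were not taken to pair the samples. No 2 arrays held identical values. Alternatives covered the constant, filter, scaling, probe set choice, fit, arrays used and each array left out.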

Additional observations from a re-analysis of the deposited data

Results flagged for a closer look

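In 2 of the 92 groups of 4 arrays examined (46 members in side and in non-side cells), 1 array stood further from the others than Dixon's 95% critical value allows. POLE, a leading-strand polymerase, read 688.7 in non-side replicate c, against 390.7 to 424 in the other non-side replicates. CLSPN (claspin), which links the fork to the checkpoint kinase CHEK1, read 205.3 in non-side replicate d, against 403.9 to 431.6 in the others. Chance flags about 1 in 20 groups, so 2 of 92 is no more than chance gives, and neither gene was called in a population comparison.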

How the results depend on the processing

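Of 26 alternatives, 25 left 0 members called between side and non-side cells, the replicate block included, and letters a and b alone gave 5. Here a pair of letters alone means the contrast of those sorted arrays within the fit of all 10 arrays split by letters. The median over members was 0.05 on all arrays, -0.06 with letters c and d alone and -0.24 on arrays whose source label names AGS. The last set lacks side replicates a and b but holds non-side replicates a and b. POLA1 turned to -0.02 on the arrays whose source label names AGS and to -0.22 with letters c and d alone. Against unsorted cells, the share of all genes called in the same setting stands in parentheses. Side cells had 1 member called when only the compared groups were fitted (RFC2, 4.56%), 2 with a replicate block (CDC6 and FEN1, 7.54%), 3 with the pair of letters as a covariate (8.83%), 5 with letters a and b alone (13.9%) and 3 with letters c and d alone (8.56%), and leaving out 1 array gave 0 to 1 (RFC2 without non-side replicate b, 4.08%). Their median was 0.25 with letters a and b alone. Non-side cells had 1 with each array centred on its median (MCM3, 7.81%), 1 with every probe set on its own (a dimmer GINS4 probe set, 3.05 on the log2 scale, 3.58%), 3 with a replicate block (RFC4, FEN1 and PRIM1, 9.8%), 6 with the covariate (12%), 9 with letters a and b alone (22.3%) and 4 with letters c and d alone (11.9%). Leaving out 1 array gave 0 to 4, the 4 without non-side replicate c (6.73%). The block and the covariate count unsorted replicates a and b as the sorted letters a and b, which the labels do not state. With no unsorted letters c and d, unsorted cells are thus compared at letters a and b. For side cells CDC6 gave 1.08 with the covariate, against 1.05 in letters a and b and 0.49 in the fit of the 3 groups. Between letters the count was 7 to 17 with 1 array left out, 12 to 17 otherwise, and under a constant of 1 or 50, quantile normalization or median centring it included all 15. The interaction called 0 to 4 members with 1 array left out, the 4 without non-side replicate d (PCNA, LIG1, POLA1 and POLE), where 823 of all genes were called (8.32%). Over all genes the calls ranged from 0 to 910 between the fractions, 10 to 1374 for side and 17 to 2205 for non-side against unsorted cells, 822 to 2681 between letters and 0 to 823 for the interaction. Median centring moved the median of all genes by -0.18 for side and -0.24 for non-side against unsorted cells, and the share of higher calls to 40.1% and 24%, against 77.3% and 67.1% without it. The causes were not tested. Deviations from the group means correlated across genes at 0.21, 0.50, -0.11 and 0.36 between side and non-side arrays of letters a to d, and 2 of the 4 side arrays correlated best with their own letter, so the replicate block pairs samples by letter only. All 46 members were above the filter, and the number of arrays limits the precision.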
